A study of Mus musculus with 103 samples.

Results

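The livers of old mice kept on a calorie-restricted diet were compared with the livers of young mice kept on a normal diet. The 2 groups were taken by their titles: 24 arrays of old restricted mice and 25 arrays of young mice on the normal diet, together 49 arrays with none in both, of a series whose other arrays number 22 and 32. All mice were C57BL6/J and were held under 12 h of light and 12 h of dark, and each diet had been given for 25 weeks. Livers were taken every 4 h at 6 times of day, from ZT0 to ZT20, where ZT counts hours from lights on. The old restricted group held 12 females and 12 males aged 83 to 97 weeks (median 88), with 3 to 5 arrays per time. The young normal-diet group held 13 females and 12 males with a median age of 52 weeks and 4 to 5 arrays per time. Its ages ran from 48 to 57 weeks apart from 1 array labelled 23 weeks, which was kept because its title places it in the group. That age is below the 25 weeks of diet, so the 2 labels conflict. The young mice were therefore mature adults. The hour of feeding and the degree of restriction are not given in the sources used here. The groups differ in age and in diet at once, so within this contrast alone the share of each cannot be told apart. The other 2 groups of the study, 22 arrays of old normal-diet mice and 32 of young restricted mice, were used to split it into steps. The old normal-diet group held 12 females and 10 males aged 84 to 93 weeks (median 88). The young restricted group held 18 females and 14 males labelled 47 to 88 weeks old (median 51).

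The liver turns dietary sugar into fatty acids and stores or exports them after a meal, and between meals it releases glucose and burns fat. Calorie restriction is known to extend lifespan in mice, and restricted mice usually eat their ration quickly and then fast until the next one. A molecular clock of activators (BMAL1, CLOCK) and repressors (PER, CRY, REV-ERB) sets daily rhythms in liver transcripts, and meal time can shift many of those rhythms. Growth hormone, secreted in pulses that differ between the sexes, controls a group of liver transcripts that are higher in males or in females.

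Values are log2 array intensities, 1 probe set per gene, and a difference is the old restricted level minus the young normal-diet level within each time of day, averaged over the 6 times. It was tested with limma, with adjusted p-values by Benjamini-Hochberg over 11787 genes and a threshold of 0.05. Whether each array is a separate animal is not stated in the labels, and the p-values reflect only how much these arrays varied. Intensities of different probe sets are not on a common scale, and only the same gene was compared between groups. Across all genes tested, 5326 (45.2%) passed the threshold, 2403 of them higher (20.4%) and 2923 lower (24.8%) in old restricted liver. The differences were mostly small: the median size was 0.09 on the log2 scale over all genes and 0.19 over those called, and 87 genes differed by more than 2-fold, 16 higher and 71 lower. After quantile normalization of the arrays the split turned to 3007 higher and 2432 lower of 5439 called (55.29% higher against 45.12%), so the balance of directions over all genes depends on the scaling.

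Before the results, 4 young normal-diet arrays need mention. The deposited values show little of the usual sex difference in Xist, the X-inactivation RNA, or Eif2s3y, a Y-linked translation factor gene, whose medians over all arrays were 4.28 and 9.24. For Xist, replicate 3 at ZT20 read 6.56 and replicate 2 at ZT12 read 6.47, against 5.78 for the next array. For Eif2s3y, replicate 1 at ZT12 read 13.09 and replicate 4 at ZT20 read 10.82, against 10.07 for the next, an array labelled female. The labels do not say whether the deposited values had been adjusted for sex, and sexes were used as labelled, in the model's sex term and in fits of 1 sex. Without these 4 arrays 5127 genes were called, 2312 higher and 2815 lower. A further array, old restricted ZT4 replicate 2, stood apart in blood-cell transcripts and is described with them.

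Genes were ranked by size among those past the threshold with 1 sign at 6 of 6 times, so both properties come from the choice. Of the 15 most reduced, 5 act in fat synthesis or storage (Cidea, Elovl6, Mogat1, Me1 and Elovl3), and the others have other roles. Serpina12, which encodes the protease inhibitor vaspin, ran from 4.83 to 6.75 (median 5.94) in old restricted liver and from 6.74 to 9.69 (median 9.13) in young normal-diet liver. The groups met only at the highest old restricted and lowest young array. It was lower by 7.11-fold (log2 difference -2.83, SE 0.19, limma adjusted p = 5.84e-22). Elovl6, which lengthens palmitate, ran from 4.64 to 7.44 (median 5.93) against 5.78 to 9.85 (median 8.57), and was 5.72-fold lower (-2.52, SE 0.17, adjusted p = 1.58e-22). Its ranges overlapped, the lowest young value lying at ZT0. Me1, the malic enzyme that makes NADPH for fatty acid synthesis, ran from 6.56 to 8.50 (median 7.37) against 8.04 to 10.82 (median 9.87). It was 5.53-fold lower (-2.47, SE 0.14, adjusted p = 3.89e-26), and the overlap came from 1 young array at ZT16. Mogat1, a monoacylglycerol acyltransferase of triglyceride synthesis, did not overlap at all: it ran from 4.81 to 5.93 against 6.33 to 8.61 and was 5.60-fold lower (-2.48, SE 0.15, adjusted p = 1.84e-24).

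Cidea, which fuses lipid droplets, ran from 3.92 to 6.92 (median 5.17) in old restricted liver and from 5.77 to 10.35 (median 7.74) in young liver, and was 6.30-fold lower (-2.65, SE 0.38, adjusted p = 1.01e-08). Its groups overlapped over a wide range. Rarres1, a retinoic acid responsive gene, was 5.97-fold lower (-2.58, SE 0.18), and its arrays ran from 5.30 to 8.01 against 7.81 to 10.02. Dio1, the deiodinase that activates thyroid hormone, was 4.34-fold lower (-2.12, SE 0.17), and its arrays ran from 6.59 to 8.57 against 8.01 to 10.76. Slc10a2, a sodium-dependent bile acid transporter, was 4.33-fold lower (-2.11, SE 0.12), and its arrays ran from 3.55 to 5.54 against 5.17 to 7.92. These 3 genes overlapped only at the edges of their ranges. The other 7 of the 15 most reduced genes were Hectd2 (-1.93), a ubiquitin ligase, Adgrv1 (-1.92), an adhesion receptor, Cyp4a12a (-1.92), Tcim (-1.91), Elovl3 (-1.91), Csrp3 (-1.83), a LIM protein best known from muscle, and Ociad2 (-1.83).

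The 15 most raised genes, ranked in the same way, were of mixed roles. Slc22a26, an organic anion transporter that is female-biased in mouse liver, ran from 5.23 to 9.94 (median 6.81) in old restricted liver and from 3.01 to 7.0 (median 5.23) in young liver. The difference was 4.70-fold (2.23, SE 0.30, adjusted p = 2.67e-09), and the highest old restricted values lay at ZT12. Pck1, phosphoenolpyruvate carboxykinase, which commits carbon to gluconeogenesis, ran from 7.21 to 8.90 (median 8.04) against 4.60 to 7.31 (median 6.21). It was 3.61-fold higher (1.85, SE 0.15, adjusted p = 1.81e-17), with an overlap of 7.21 to 7.31 only. Enho, which encodes the secreted peptide adropin, ran from 6.96 to 8.63 against 5.17 to 6.87 and was 3.49-fold higher (1.80, SE 0.12, adjusted p = 9.2e-22). Slco2a1, a prostaglandin transporter, ran from 6.91 to 8.26 against 5.46 to 6.78 and was 2.49-fold higher (1.32, SE 0.09, adjusted p = 7.83e-23). Enho and Slco2a1 were the 2 genes (0.0170% of those tested) whose old restricted arrays all lay above the young arrays.

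Next in size came Pcp4l1 (1.69, SE 0.14), then Gsta2 (1.46, SE 0.19), a glutathione transferase whose arrays ran from 8.63 to 10.26 against 6.52 to 9.50. Avpr1a, the hepatic vasopressin receptor, was higher by 1.27 (SE 0.13), Cyp26a1, which degrades retinoic acid, by 1.22 (SE 0.20) and Orm2, an acute-phase protein, by 1.21 (SE 0.21). Igfbp2, a binding protein of insulin-like growth factors, ran from 9.64 to 11.26 against 8.28 to 10.44 and was 2.24-fold higher (1.17, SE 0.12, adjusted p = 5.01e-13). The last 5 of the 15 were Cyp2b9 (1.06), Aldoc (1.04), an aldolase, Rdh16f2 (1.03), a retinol dehydrogenase, Cyp39a1 (1.02), an oxysterol hydroxylase, and Cyp2c37 (1.00). Hes7 had a mean difference of 1.10 but kept its sign at 4 of 6 times and is described with the genes that varied over the day.

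**Figure D1:**
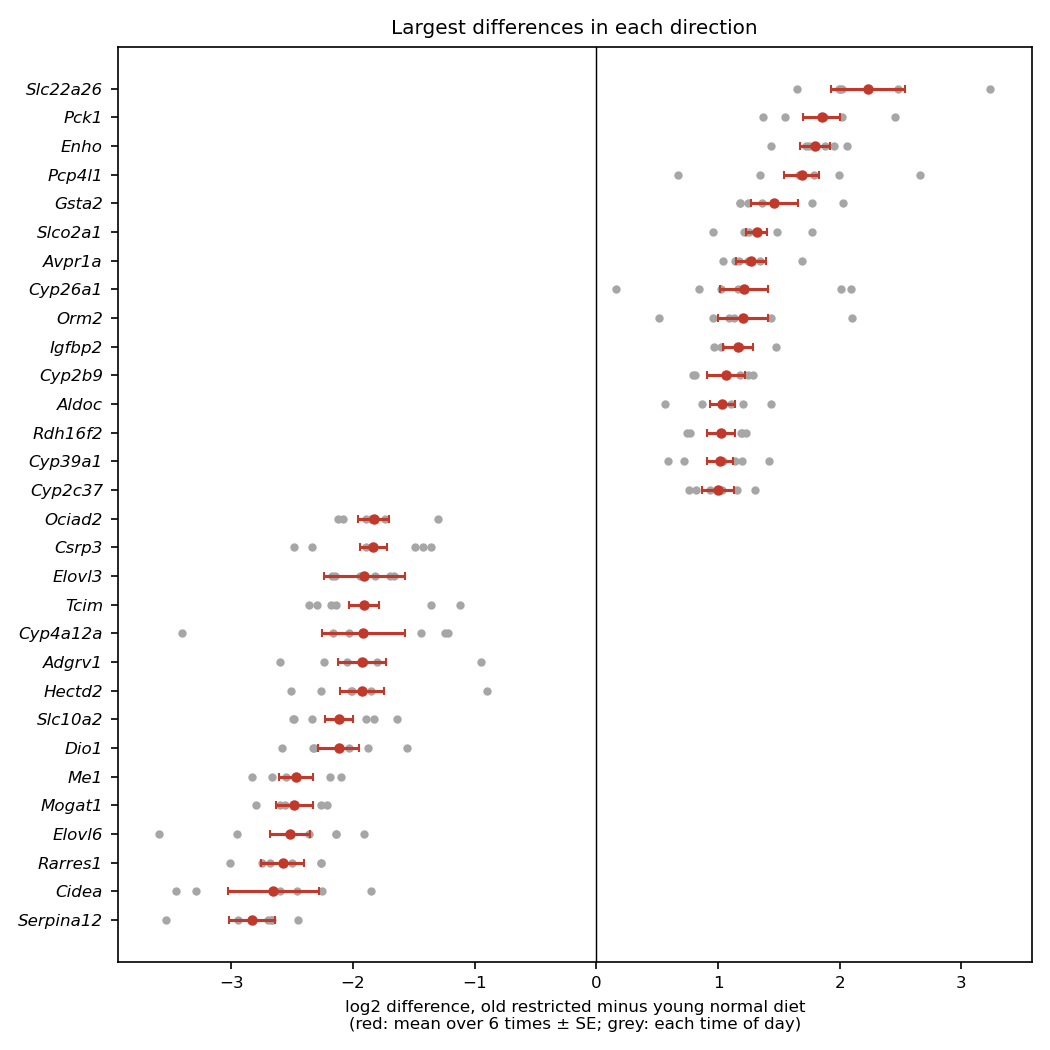
The 15 genes most raised and the 15 most reduced in old restricted liver, by log2 difference from young normal-diet liver on the horizontal axis. Red points and bars are the mean over 6 times and its SE, grey points the difference at each time; Serpina12 lies at -2.83 and Slc22a26 at 2.23. Genes were chosen to have 1 sign at all 6 times.

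**Figure D2:**
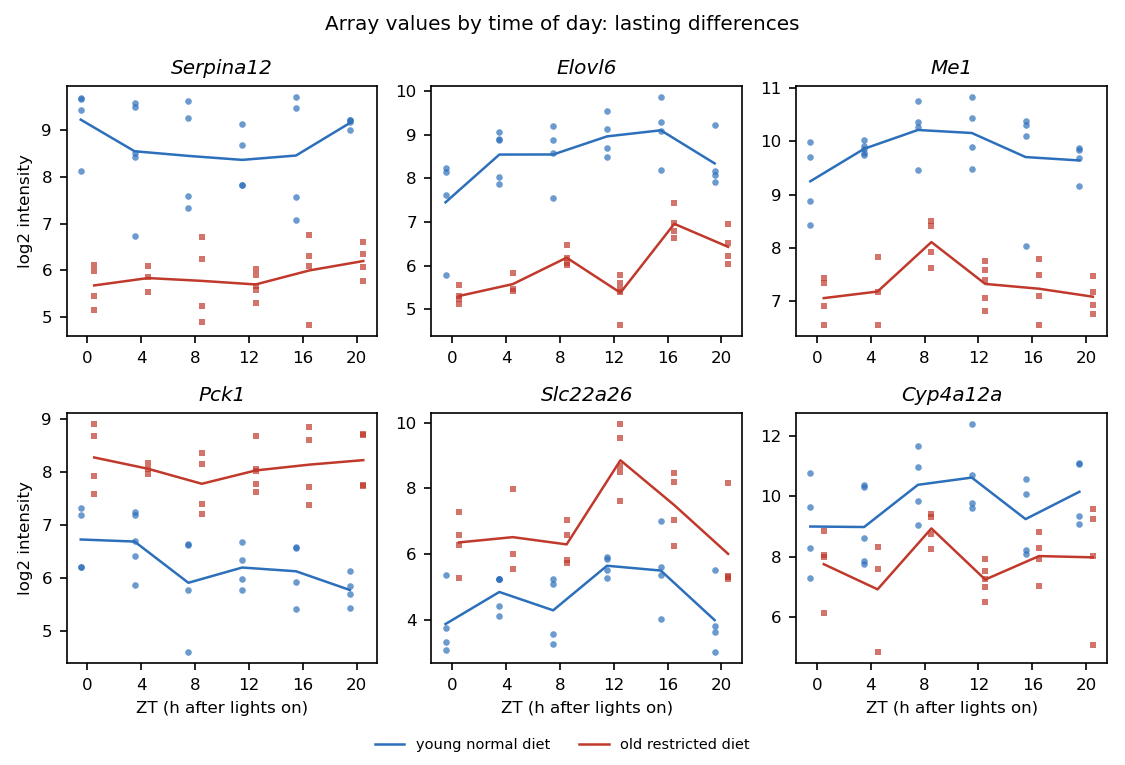
Log2 intensity of every array of both groups (vertical axis) by hours after lights on (horizontal axis) for 6 of these genes, with lines through the group means. Old restricted arrays of Me1 lie between 6.56 and 8.50 and those of Pck1 between 7.21 and 8.90 over the whole day, while Slc22a26 is highest at ZT12 in old restricted liver.

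A further 13 genes (0.110%) had every old restricted array below every young array: C4bp, Csrp3, Fabp2, Fads2, Gbe1, Gpd2, Mogat1, Mycl, Ociad2, Pygl, Sh3bgrl, Tbc1d31 and Wfdc2. Fabp2, an intestinal-type fatty acid binding protein, ran from 8.57 to 9.90 against 10.17 to 11.48 and was 3.28-fold lower (-1.72, SE 0.09, adjusted p = 2.87e-28). Gpd2, the mitochondrial glycerol 3-phosphate dehydrogenase, ran from 6.83 to 8.61 against 8.87 to 9.85 and was 2.64-fold lower (-1.40). The glycogen enzymes Gbe1, which adds branches, and Pygl, which releases glucose units, were 2.53-fold (-1.34, SE 0.08) and 1.49-fold lower (-0.58, SE 0.03). Pygl shows that a small difference can separate the groups: its arrays lay between 10.06 and 10.98 in old restricted liver and between 11.01 and 11.38 in young liver.

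The fatty acid synthesis list had 21 measured genes, of which 19 were lower and 0 higher in old restricted liver. Over all genes tested 24.8% were lower and 20.4% higher. The list's median difference was -1.15 against -0.00 over all genes tested. The chain of the pathway was reduced from its start. Acly, which makes cytosolic acetyl-CoA, was lower by 1.98-fold (-0.98), and Acaca, acetyl-CoA carboxylase, by 2.43-fold (-1.28). Fasn, fatty acid synthase, ran from 7.07 to 9.15 (median 7.94) against 7.95 to 10.44 (median 9.68) and was 3.05-fold lower (-1.61, SE 0.13, adjusted p = 3.13e-18). Thrsp, a regulator of lipogenesis, was 3.39-fold lower (-1.76, SE 0.14), and Pnpla3, a lipid droplet lipase induced by carbohydrate, was 3.51-fold lower (-1.81, SE 0.22). The desaturases differed in size: Fads2 was 2.52-fold lower without overlap, Scd1 1.41-fold lower (-0.49, SE 0.05). The 2 genes that did not pass were Dgat1 (0.10, adjusted p = 0.066) and Dgat2 (0.02, adjusted p = 0.84), which catalyse the last step of triglyceride synthesis.

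Of 16 measured genes of lipid droplets and lipid uptake, 10 were lower and 1 higher, against 24.8% and 20.4% of all genes. The median was -0.34. Fabp5, an epidermal-type fatty acid binding protein, ran from 6.53 to 8.41 against 7.74 to 10.22 and was 3.52-fold lower (-1.82, SE 0.15). Cd36, a fatty acid translocase, ran from 3.92 to 5.85 against 4.50 to 7.40 and was 2.61-fold lower (-1.39, SE 0.15). Plin2, a droplet coat protein, was 1.72-fold lower (-0.78), and G0s2, an inhibitor of the lipase ATGL, 2.25-fold lower (-1.17). The gene that was higher was Vldlr, a lipoprotein receptor (0.72, SE 0.14, adjusted p = 7.43e-06).

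Genes of fatty acid oxidation did not take the opposite course on the mean over the day. Among 19 measured genes of the PPAR-alpha and fatty acid oxidation list, 12 were lower and 0 higher, against 24.8% and 20.4% of all genes. The median was -0.24. By time the list's median was -0.19 at ZT0, -0.15 at ZT4, -0.04 at ZT8, 0.02 at ZT12, -0.67 at ZT16 and -0.54 at ZT20. The difference varied with the time of day for 4 of the 19 genes, against 24.9% of all genes tested. Vnn1, a pantetheinase, ran from 6.46 to 9.10 (median 7.97) against 8.61 to 10.42 (median 9.75) and was 2.99-fold lower (-1.58, SE 0.18, adjusted p = 2.87e-12). Acaa1a, a peroxisomal thiolase, was 2.07-fold lower (-1.05, SE 0.13), and Ppara itself, the fatty acid sensing receptor, 1.43-fold lower (-0.52, SE 0.08). Cpt1a, the gate to mitochondrial oxidation, was lower by 1.18-fold (-0.24), Fgf21, a fasting hormone, by 1.43-fold (-0.51), and Pdk4, which blocks pyruvate oxidation, by 1.66-fold (-0.73, adjusted p = 0.0058). The mitochondrial oxidation genes Acadm (-0.03), Acadl (0.05), Acaa2 (0.04), Hadhb (0.11) and Acadvl (0.14) did not pass.

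Glycolysis and glycogen genes were mostly lower: 9 of 12 measured members were lower and 1 higher, with a median of -0.34. Pklr, liver pyruvate kinase, ran from 9.03 to 10.67 against 10.56 to 11.69 and was 2.34-fold lower (-1.23, SE 0.10). Tkfc, a kinase of fructose use, was 1.63-fold lower (-0.71), and Khk, ketohexokinase, was lower too (-0.42). The member that was higher, Pgk1, differed by 0.06. The gluconeogenesis and fasting list was split, with 4 of 15 members higher and 5 lower, against 20.4% and 24.8% of all genes. Its median was -0.01. Pck1 and Igfbp2 were the large increases, while Igfbp1, an insulin-repressed binding protein, was 1.49-fold lower (-0.58, SE 0.15), Sesn3 1.56-fold lower (-0.64, SE 0.05) and G6pc lower (-0.77), a mean that hides a difference at only part of the day.

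Amino acid breakdown and the urea cycle were higher: 13 of 16 measured members were higher and 0 lower. Over all genes 20.4% were higher and 24.8% lower, and the list's median was 0.24. Cth, which makes cysteine and hydrogen sulfide, ran from 9.72 to 11.17 (median 10.30) against 8.95 to 10.18 (median 9.54) and was 1.84-fold higher (0.88, SE 0.08, adjusted p = 1.01e-15). Ass1 (0.67), Asl (0.34), Cps1 (0.22), Otc (0.21) and Arg1 (0.16), which carry out the urea cycle, all passed. The difference was small but tight for Cps1, which ran from 11.92 to 12.18 against 11.54 to 12.10 (SE 0.02). The 3 members that did not pass were Tat (0.13), Hgd (0.12) and Bckdha (-0.10).

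Of 15 measured cholesterol synthesis genes, 8 were higher and 2 lower on the mean over the day, against 20.4% and 24.8% of all genes. The median was 0.24. By time the list's median was 0.32 at ZT0, -0.48 at ZT4, 0.23 at ZT8, -0.51 at ZT12, 0.85 at ZT16 and 0.75 at ZT20. Srebf2, the transcription factor of the pathway, was 1.39-fold higher (0.47, SE 0.06, adjusted p = 1.06e-09), Sqle, squalene epoxidase, 1.54-fold (0.62, SE 0.20) and Lss, lanosterol synthase, 1.51-fold (0.59, SE 0.13). Sc5d, a late sterol desaturase, was 1.48-fold lower (-0.56, SE 0.09) and Fdps, farnesyl diphosphate synthase, 1.37-fold lower (-0.45, adjusted p = 0.0209). The difference varied with the time of day for 12 of the 15 genes, against 24.9% of all genes tested. Sqle at ZT16 read 7.74, 8.48, 8.59 and 8.78 in old restricted liver and 5.20, 5.62, 6.40 and 7.79 in young liver. At ZT4 it read 6.61, 7.63 and 7.78 against 7.01, 7.54, 7.78, 8.51 and 8.52, so the groups were nearly separate at ZT16 and intermingled at ZT4.

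In the bile acid list 2 of 20 members were higher and 9 lower (20.4% and 24.8% of all genes), with a median of -0.15. Cyp7a1, the rate-limiting enzyme of bile acid synthesis, ran from 5.86 to 10.50 (median 8.93) against 5.83 to 8.98 (median 7.64) and was 1.79-fold higher (0.84, SE 0.24, adjusted p = 0.00298). Cyp8b1, which directs synthesis to cholic acid, was 1.67-fold lower (-0.74, SE 0.12). Besides Slc10a2, the transporters Slco1a1 (-1.40, SE 0.26), Abcc3 (-0.52) and Abcb11 (-0.22) were lower, while the main hepatic uptake transporter Slc10a1 (0.05) did not pass.

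Of the 11 male-biased liver genes measured, 9 were lower and 0 higher, with a median of -0.89. Of 12 female-biased genes 7 were higher and 1 lower, with a median of 0.53. Over all genes 24.8% were lower and 20.4% higher. Cyp4a12a, a fatty acid hydroxylase of male liver, ran from 4.85 to 9.59 (median 8.01) against 7.28 to 12.37 (median 9.76) and was 3.78-fold lower (-1.92, SE 0.34, adjusted p = 2.45e-06). Elovl3, a male-biased elongase, ran from 4.16 to 9.0 against 6.56 to 11.27 and was 3.75-fold lower (-1.91, SE 0.34). Both overlapped over a wide range. Mup3, a major urinary protein, was 1.81-fold lower (-0.86, SE 0.10), although Mup genes are near-identical copies that a probe set may not separate. On the female side, Slc22a26, Cyp2b9 (1.06), Cyp2b13 (0.79, adjusted p = 0.02), Fmo2 (0.76) and the female-specific repressor Cux2 (0.53) were higher, and the exception was Cyp17a1, a steroid hydroxylase (-1.14, SE 0.14). Cyp2b13 missed the threshold without old restricted ZT4 replicate 3 (0.66, adjusted p = 0.0597), and the male-biased Cyp2d9 (-0.48, adjusted p = 0.0406) did so when any 1 of 16 arrays was left out, and without the 4 young arrays named above (-0.29, adjusted p = 0.259). Without those 4 arrays 8 male-biased genes were lower and 6 female-biased genes higher. A limma test of whether the old restricted minus young difference itself differs between females and males called 0 genes. At an unadjusted p under 0.05 it called 388. The deposited values it used showed little of the usual sex difference in Xist and Eif2s3y.

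In the growth hormone and IGF list 7 of 15 members were higher and 3 lower (20.4% and 24.8% of all genes), with a median of 0.13. Socs2, which growth hormone induces and which dampens its signal, ran from 4.72 to 8.82 (median 7.54) against 4.89 to 8.04 (median 6.38) and was 1.99-fold higher (0.99, SE 0.20, adjusted p = 3.58e-05). The receptor gene Ghr was 1.25-fold lower (-0.33, SE 0.05), and Igfals, the acid-labile subunit that carries IGF in blood, 1.26-fold higher (0.34, SE 0.08). Igf1 did not pass (0.09, adjusted p = 0.234). Lepr (-1.02, SE 0.14), the leptin receptor gene, and Bcl6 (-1.02, SE 0.25), a transcriptional repressor, were both 2.03-fold lower.

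Stress and detoxification genes were mixed, and their counts stand beside shares of 20.4% higher and 24.8% lower over all genes. In the xenobiotic list 12 of 27 members were higher and 4 lower, with a median of 0.12, led by Gsta2 and Cyp2b9, while Cyp3a11, a main drug-oxidising enzyme, was lower (-0.48). Nfe2l2, which encodes the antioxidant regulator NRF2, was 1.61-fold lower (-0.69, SE 0.06, adjusted p = 6.72e-16), and of the 9 genes of the NRF2 list, itself included, 1 was higher, Osgin1 (0.52), and 3 lower. In the acute-phase list 9 of 22 members were higher and 5 lower. Saa1, serum amyloid A, ran from 6.51 to 12.67 (median 9.44) against 9.24 to 12.62 (median 11.02) and was 3.08-fold lower (-1.62, SE 0.22). Saa1 and Saa2 (-1.08) are close copies whose probe sets may share transcripts. Hamp, the iron hormone hepcidin, was higher (0.42, SE 0.07). Cdkn1a, the cell-cycle inhibitor p21, ran from 6.19 to 10.41 (median 7.62) against 7.29 to 11.41 (median 9.31) and was 2.53-fold lower (-1.34, SE 0.17, adjusted p = 4.96e-10).

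**Figure D3:**
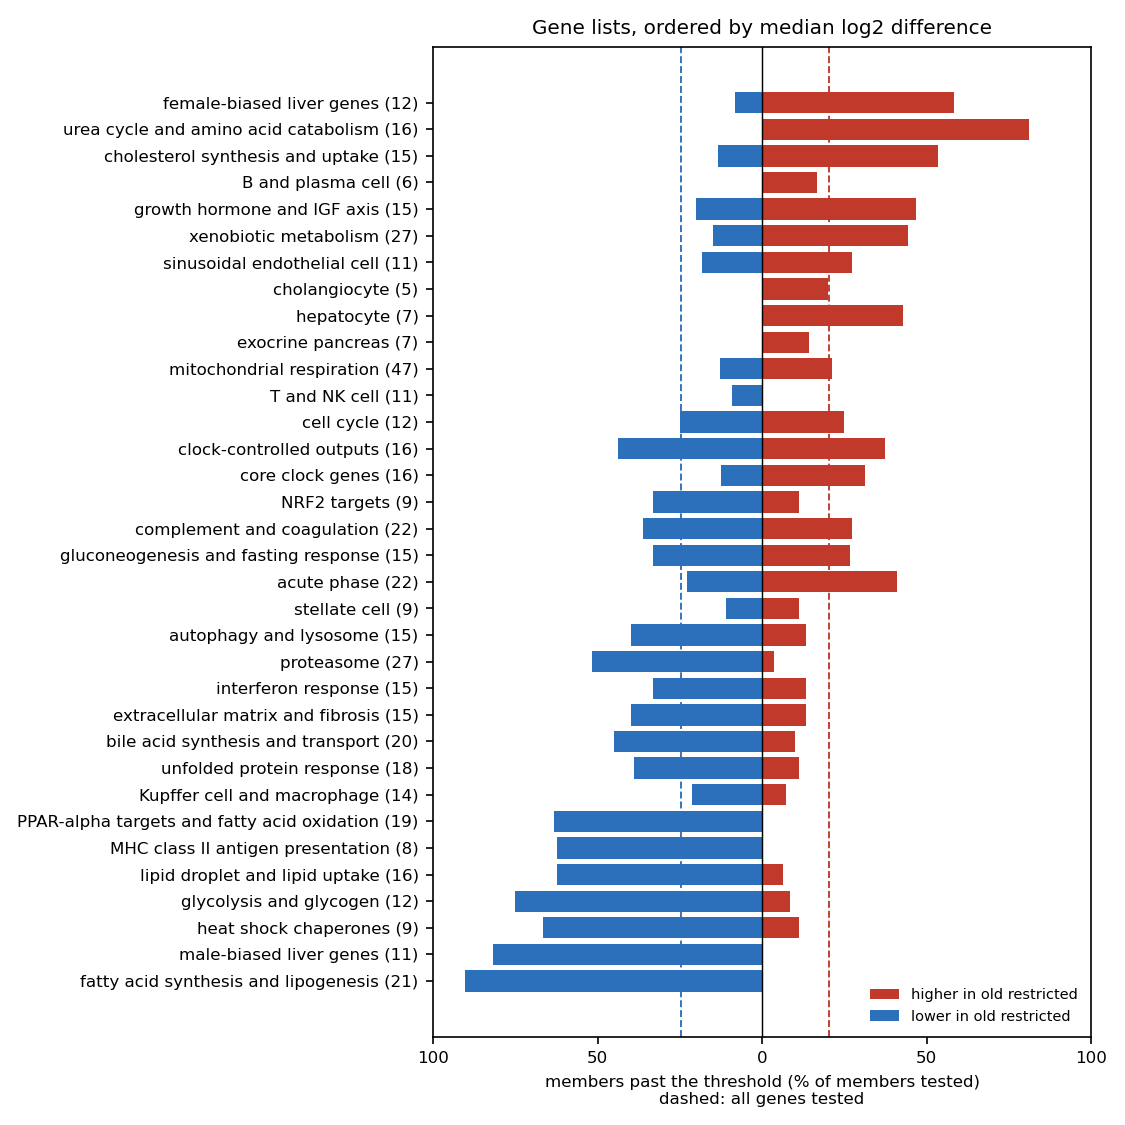
Share of each list's tested genes past the threshold (horizontal axis, percent), higher and lower in old restricted liver, for lists with at least 5 tested genes, ordered by median log2 difference. Dashed lines give the shares over all genes, 20.4% higher and 24.8% lower; the fatty acid synthesis list (19 of 21 lower) and the urea cycle list (13 of 16 higher) lie farthest from them.

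Markers of the liver's cell types were measured in the same arrays. In a whole-tissue sample fewer cells of a type and less RNA per cell cannot be told apart. The hepatocyte markers had a mean of 11.57 to 11.91 in old restricted liver and 11.44 to 11.79 in young liver. Of 7 hepatocyte genes 3 were higher (1 after quantile normalization) and 0 lower, the largest being Hnf4a, a master transcription factor of hepatocytes (0.43, SE 0.05, 9.0 to 9.87 against 8.70 to 9.60). Of 8 class II antigen presentation genes 5 were lower and 0 higher (median -0.30), among them H2-Eb1 (-0.52, SE 0.12), H2-Ab1 (-0.47) and the invariant chain Cd74 (-0.44). H2-Aa (-0.30, adjusted p = 0.0213) lost its call without young normal ZT16 replicate 2 (adjusted p = 0.0565) or without the 4 young arrays (adjusted p = 0.0518). Of 14 macrophage genes 3 were lower (Clec7a at -0.56, Adgre1 at -0.47 and Mpeg1 at -0.37) and 1 higher (Marco, 0.56), shares below those over all genes (24.8% lower, 20.4% higher), and the Kupffer-cell markers Clec4f (-0.16) and Timd4 (-0.19) did not pass. By time the macrophage list's median was 0.00 at ZT0, 0.76 at ZT4, -0.39 at ZT8, -0.50 at ZT12, -0.49 at ZT16 and -0.31 at ZT20. The ZT4 value rests on 3 old restricted arrays, among them replicate 2, which is described below. Adgre1, a macrophage surface receptor gene, lost its call without old restricted ZT4 replicate 3 (adjusted p = 0.0513) or young normal ZT12 replicate 3 (adjusted p = 0.0505).

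Of 8 neutrophil genes on the array, 5 were left out for their low means. The 3 tested, S100a9 (0.55), Ltf (0.42) and Camp (0.34), passed as higher, but 1 array weighed on them. Their mean was 8.08 in old restricted ZT4 replicate 2 and 4.79 to 6.00 in the other old restricted arrays, against 4.09 to 6.03 in young liver. That array was also the highest of its group in macrophage genes (8.76, next 7.86) and erythroid genes (11.91, next 10.69). Without it Ltf (adjusted p = 0.196) and Camp (adjusted p = 0.116) did not pass, nor did Marco (adjusted p = 0.12), and Dcn, a matrix gene, missed it too (adjusted p = 0.0537), while 1 neutrophil gene was past the threshold. Ltf lost its call when any 1 of 9 arrays of both groups was left out and Marco when any 1 of 20 was. Without the 4 young arrays 1 neutrophil gene and no macrophage gene was higher. Of 15 matrix genes 6 were lower and 2 higher (median -0.13), against 24.8% and 20.4% of all genes. The fibrillar collagens Col3a1 (-0.62, SE 0.15) and Col1a1 (-0.58, SE 0.15) were among the lower ones. Of 9 stellate-cell markers, Lrat, which stores vitamin A, was lower (-0.74, SE 0.09) and Dcn higher by 0.09. Of 11 sinusoidal endothelial genes 3 were higher and 2 lower (20.4% and 24.8% of all genes), none by more than Tek (-0.24). T-cell, cholangiocyte and exocrine pancreas lists had at most 1 gene past the threshold each, of 11, 5 and 7 measured. Of 6 B and plasma cell genes Iglv1 was higher (0.58, adjusted p = 0.00141), and of 2 erythroid genes Alas2 was lower (-0.57, adjusted p = 0.00132). The part of cell composition in the other results was not tested.

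The difference between the groups depended on the time of day for 2938 genes (24.9%), of which 1344 had no call on the mean over the day. Single times gave between 1457 calls at ZT8 (480 higher, 977 lower) and 2849 at ZT12 (1017 higher, 1832 lower). The numbers of arrays were unequal: 5 old restricted and 4 young at ZT12, and 4 of each at ZT8. The median size of a difference was 0.15 at ZT12 and 0.12 at ZT8. From ZT0 to ZT20 in order, the share of all genes called higher was 6.99%, 7.10%, 4.07%, 8.63%, 7.73% and 5.74%, and the share called lower 10.5%, 10.6%, 8.29%, 15.5%, 8.50% and 7.76%. Without the 4 young arrays named above, which were taken at ZT12 and ZT20, 2371 genes varied with time.

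Per2, a clock repressor, had a mean difference of -0.02 (adjusted p = 0.913) made of opposite parts (adjusted p for time = 1.47e-08). At ZT0 the old restricted arrays read 3.74, 3.88, 4.12 and 4.15 and the young arrays 5.71, 5.97, 6.38 and 6.38, a difference of -2.14 (SE 0.28, adjusted p = 3.17e-08). At ZT16 they read 8.35, 8.56, 8.58 and 8.72 against 7.35, 7.43, 7.58 and 8.06, a difference of 0.95 (adjusted p = 0.0126). The groups were thus separate at both times, in opposite directions. Nr1d2, which encodes the repressor REV-ERB-beta, differed most at ZT16, where old restricted arrays read 4.66, 5.03, 5.06 and 5.79 and young arrays 6.92, 6.99, 7.20 and 7.39 (-1.99, SE 0.35, adjusted p = 1.3e-05). Cry1, the late repressor, was higher from ZT12 to ZT20. Its ZT20 arrays read 7.32, 7.61, 7.64 and 7.64 against 6.34, 6.40, 6.91 and 6.98 (0.89, SE 0.24, adjusted p = 0.00616).

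Nfil3, a repressor that acts on D-box elements, was lower at ZT4 (-1.25, SE 0.19), where 3 old restricted arrays read 6.67 to 6.99 and 5 young arrays 7.97 to 8.14, and higher at ZT12 (0.88). Bhlhe40, a repressor that binds E-boxes, was lower on the mean (-0.58) and most at ZT0 (-1.43, SE 0.16), where the arrays ran from 6.96 to 7.40 against 8.35 to 8.91. Per1 was higher on the mean by 0.51 (SE 0.09, adjusted p = 7.87e-07), and its difference did not pass the time test (adjusted p = 0.118). At ZT8 its arrays ran from 8.46 to 8.79 against 7.29 to 7.76 (1.12). Clock was lower at ZT8 (-0.65) and higher at ZT16 (0.45), Tef, a D-box activator, was higher at ZT8 (0.85), and Arntl, which encodes BMAL1, at ZT16 (0.53). Of the 16 clock genes measured, 9 passed the time test (24.9% of all genes did), and 8 did without the 4 young arrays. On the mean 5 were higher and 2, Bhlhe40 and Nr1d2, lower, against 20.4% and 24.8% of all genes. Nr1d2 was not called on the mean without young normal ZT0 replicate 2 (limma adjusted p = 0.0542). The time calls of Arntl (adjusted p = 0.0222) and Cry2 (adjusted p = 0.0287) were lost without single arrays, 3 for Arntl and 4 for Cry2. Per3 (adjusted p = 0.0619), Ciart (adjusted p = 0.0614), Npas2, Rora, Hlf and Csnk1e did not pass it.

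Clock activators bind the E-box CACGTG and PAR-bZIP factors such as TEF bind the D-box TTATGTAA, and these letters were searched on both strands in the 250 bases before each gene's start in RefSeq promoter sequences (GRCm38.p6). Of 25 genes (the clock list and those with the widest differences over the day), 20 had a sequence. Ciart, Cry1, Per1 and Tef held the E-box, 4 of 20 (20%) against 6.86% of 27025 genes, and Per3 held the D-box, 1 of 20 (5%) against 0.977%. A gene with several starts, such as Tef, counts once if any of its promoters matches; by single promoters the shares were 6.02% and 0.819% of 32851. Of the genes with a motif, 4 of the clock list are shown with the motif in capitals; Cry1 and Tef passed the time test, Per1 and Per3 did not. They stand in the order Cry1 (chr10:85185089-85185134, minus strand), Per1 (chr11:69098763-69098808, plus strand), Tef (chr15:81802526-81802571, plus strand) and Per3 (chr4:151044843-151044890, minus strand).
Cry1: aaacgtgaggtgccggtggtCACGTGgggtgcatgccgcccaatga
Per1: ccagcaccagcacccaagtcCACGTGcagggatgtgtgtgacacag
Tef: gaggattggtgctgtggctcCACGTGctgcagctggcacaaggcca
Per3: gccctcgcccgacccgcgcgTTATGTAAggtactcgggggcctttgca
The E-box lies 60 bases before the start in Cry1, 166 in Per1 and 127 in Tef, and the D-box 205 bases before it in Per3. A match of letters is a description and does not show binding. All the genes with a motif belong to the clock list, which was made of known clock genes. The shares with a motif therefore do not bear on the differences over the day.

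Chaperones of the endoplasmic reticulum differed in opposite directions at ZT0 and ZT16. Of 18 measured genes of the unfolded protein response, 17 varied with time (24.9% of all genes did). On the mean 2 were higher and 7 lower, against 20.4% and 24.8% of all genes, with a median of -0.15. After quantile normalization 4 were higher and 6 lower. The list's median was -0.43 at ZT0, -0.46 at ZT4, -0.30 at ZT8, -0.21 at ZT12, 0.47 at ZT16 and 0.17 at ZT20. Creld2, a secreted chaperone partner, read 8.29, 8.46, 8.80 and 9.40 in old restricted liver at ZT0 against 10.26, 10.69, 10.99 and 11.26 in young liver (-2.06, SE 0.24, adjusted p = 9.2e-10). At ZT16 it read 11.08, 11.09, 11.74 and 11.96 against 9.32, 9.67, 9.92 and 10.03 (1.73, adjusted p = 6.76e-08). The groups did not overlap at either time and had changed places. Manf, another secreted protein of the endoplasmic reticulum, differed by -1.48 at ZT0 and 1.66 at ZT16, where it read 10.34, 10.61, 11.14 and 11.49 against 8.90, 9.25, 9.39 and 9.41. Hspa5, the central chaperone BiP, differed by -1.08 at ZT0 and 1.27 at ZT16, where it read 10.05, 10.22, 10.68 and 10.76 against 9.0, 9.05, 9.10 and 9.48. Without the 4 young arrays 16 of the 18 varied with time.

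The endoplasmic reticulum stress element (CCAAT, any 9 bases, then CCACG), bound by ATF6 with NF-Y, was searched in the same windows on both strands, a search added after the values were seen. It was present in 6 of the 16 list members with a sequence (37.5%), Calr, Creld2, Dnajc3, Hsp90b1, Hspa5 and Pdia6, and in 35 of 27025 genes (0.13%; 37 of 32851 promoters, 0.113%). The windows of Hspa5 (chr2:34772005-34772063, plus strand), Creld2 (chr15:88819500-88819558, plus strand), Dnajc3 (chr14:118937807-118937865, plus strand) and Pdia6 (chr12:17266471-17266529, plus strand) show the 2 ends of the element in capitals, read in the gene's direction; that of Creld2 runs on the opposite strand.
Hspa5: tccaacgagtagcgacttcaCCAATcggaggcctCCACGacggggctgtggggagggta
Creld2: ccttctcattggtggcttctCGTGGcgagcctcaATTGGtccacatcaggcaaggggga
Dnajc3: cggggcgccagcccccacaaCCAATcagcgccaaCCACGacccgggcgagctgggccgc
Pdia6: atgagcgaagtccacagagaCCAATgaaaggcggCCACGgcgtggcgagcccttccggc
The element starts 65 bases before the gene start in Hspa5, 126 in Creld2, 105 in Dnajc3 and 98 in Pdia6. All 4 transcripts are members of the list described above, and nothing here measured the binding of a factor. The list was made of known genes of this response, so its share with the element does not bear on the differences over the day.

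Of 9 measured heat shock genes, mostly chaperones of the cytosol, 8 varied with time, against 24.9% of all genes. Their median was -0.98 at ZT0, -0.92 at ZT4, -0.77 at ZT8, -0.42 at ZT12, 0.49 at ZT16 and -0.17 at ZT20, above 0 at ZT16 alone. On the mean 6 were lower and 1 higher, against 24.8% and 20.4% of all genes. Hsp90aa1, an inducible HSP90, read 7.94, 8.23, 8.30 and 8.64 at ZT0 against 9.61, 9.63, 9.68 and 9.99, and 10.26, 10.26, 10.44 and 10.49 at ZT16 against 8.88, 9.19, 9.53 and 9.69. It was 1.59-fold lower on the mean (-0.66, SE 0.08) although higher by 1.04 at ZT16. The member that was higher on the mean, Cirbp, an RNA-binding protein induced by cooling, ran the other way: it read 5.91, 6.00, 6.21 and 6.74 at ZT0 against 4.46, 4.58, 4.93 and 5.00 (1.47), and 4.24 to 4.69 at ZT16 against 4.60 to 5.19 (-0.39, adjusted p = 0.315).

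G6pc, glucose 6-phosphatase, which releases glucose from the liver, differed at 2 times of the 6 (adjusted p for time = 2.42e-14). At ZT8 old restricted arrays read 8.85, 9.05, 9.07 and 9.23 and young arrays 11.50, 11.92, 12.01 and 12.53, a difference of -2.94 (SE 0.21, adjusted p = 2.95e-19). At ZT4 the difference was -1.53 (SE 0.22), and at ZT0, ZT12, ZT16 and ZT20 it was 0.03, -0.24, 0.04 and -0.02. Pck1, the other main gluconeogenic enzyme, was higher at all 6 times, so the pair differed in opposite directions at ZT4 and ZT8.

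Lpin1, a phosphatidate phosphatase and coactivator, was higher at ZT8 (1.35, adjusted p = 0.035) and lower at ZT16 (-2.11, adjusted p = 0.000364). Car3, a carbonic anhydrase, was lower at ZT12 (-1.89, adjusted p = 0.0298) and higher at ZT16 (2.08, adjusted p = 0.0317). Ppp1r3g, a glycogen-targeting subunit of protein phosphatase 1, was lower at ZT4 (-2.44, adjusted p = 3.08e-05). Zbtb16, a zinc-finger transcription factor, was higher at ZT8 (2.45, adjusted p = 1.37e-05), as was Hes7, a Notch-pathway repressor (3.05, adjusted p = 0.000924). The time call of Hes7 (adjusted p = 0.0462) was lost when any 1 of 22 arrays was left out.

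**Figure D4:**
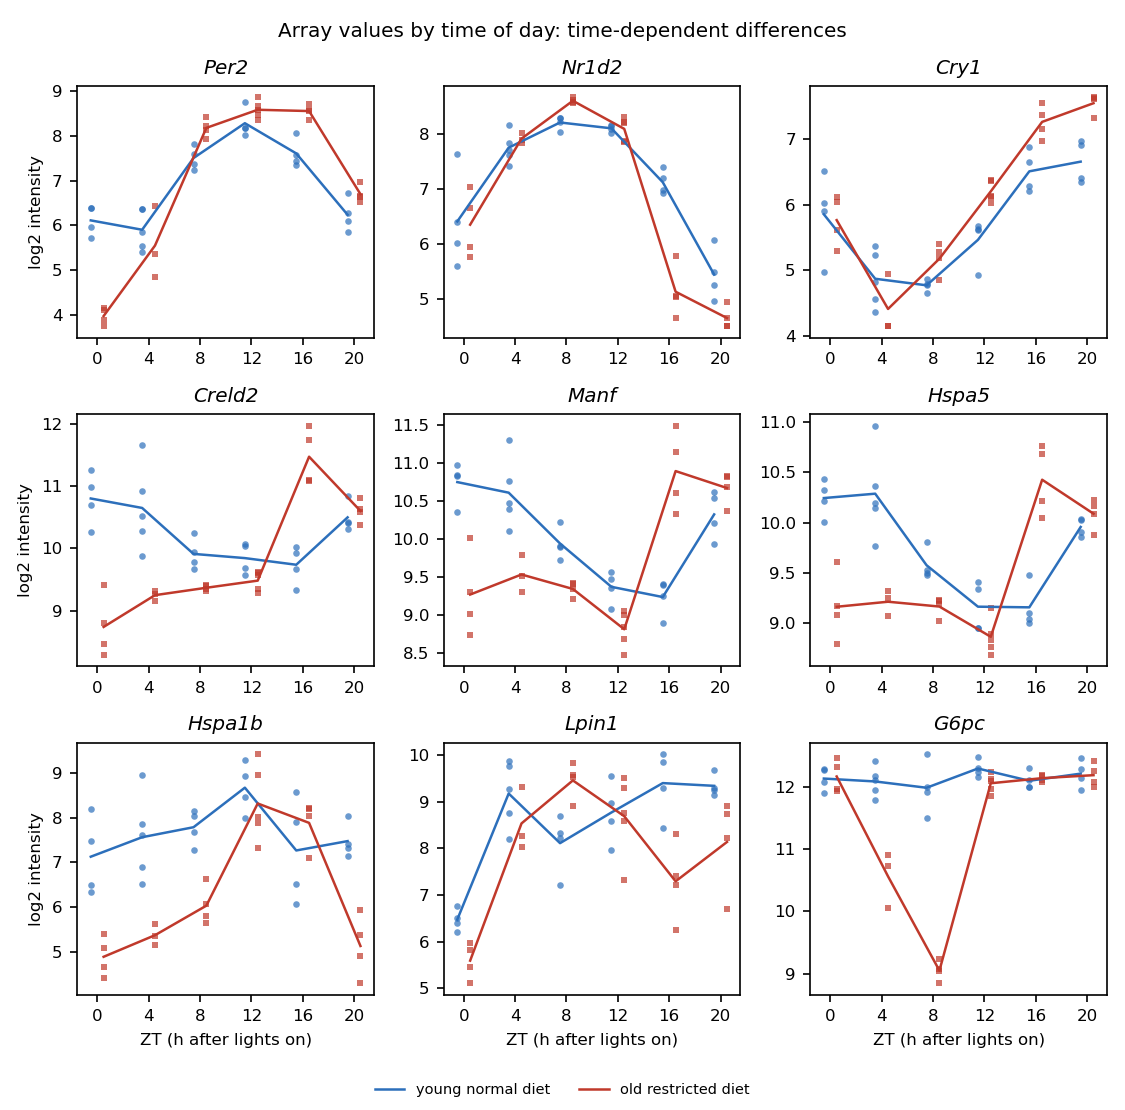
Log2 intensity of every array (vertical axis) by hours after lights on (horizontal axis) for 9 genes whose difference varied with time, with lines through the group means. Creld2, Manf and Hspa5 are lower in old restricted liver at ZT0 and higher at ZT16, and G6pc is lower at ZT4 and ZT8 and close to young liver at the other times.

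The contrast is the sum of an age step and a diet step, by way of old mice on the normal diet or of young mice under restriction; 1 array in the latter group is labelled 88 weeks old. These comparisons share arrays, so their values are given side by side. The age step on the normal diet called 594 genes (5.04%) and under restriction 911 (7.73%), and the diet step called 5152 (43.7%) in young and 4993 (42.4%) in old mice. The median of the fatty acid synthesis list was -0.08 and -0.10 for the age steps and -0.93 and -1.10 for the diet steps in young and old mice. Lists differed in this. In the same order the medians were 0.04, 0.01, 0.26 and 0.18 for the urea cycle and amino acid list. They were 0.20, 0.09, 0.18 and 0.03 for cholesterol synthesis. For the PPAR-alpha and fatty acid oxidation list they were -0.22, -0.12, -0.07 and 0.10. The departure from a plain sum passed for 2 genes (0.0170%; 1109 at an unadjusted p under 0.05), Syce2 (0.24, adjusted p = 0.0198), a meiotic protein gene, and the gene model Gm10037 (-0.26, adjusted p = 0.0126).

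The genes described next were taken from those with an age change in earlier results of these data, so their age steps come from the choice. Some had steps of age and diet in the same direction. Ociad2, a mitochondrial membrane protein gene, had group medians of 8.16 in young normal, 7.35 in old normal, 6.94 in young restricted and 6.24 in old restricted liver. Its age step was -0.84 on the normal diet (adjusted p = 4.97e-05) and -0.74 under restriction, and its diet step -1.09 in young and -0.99 in old mice, so that the 2 compared groups, with no overlap, stood at the ends. Hspa1b, the inducible HSP70, had medians of 7.67, 6.75, 6.59 and 5.86 in the same order and a difference between old restricted and young normal liver of -1.38 (SE 0.22). Its near-identical copy in the genome means that the probe set may not separate the pair. Slc25a30, a mitochondrial carrier, was lower (-1.39, SE 0.24), with an age step that passed under restriction (-0.75, adjusted p = 0.0299) and not on the normal diet (-0.30, adjusted p = 0.536). Sult2a8, a bile acid sulfotransferase, had age steps of -0.53 and -0.68, smaller diet steps of -0.15 and -0.31, and a sum of -0.84 (SE 0.16, limma adjusted p = 1.52e-05).

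In other genes the steps ran against each other. Cd163, a haemoglobin scavenger receptor of macrophages, had medians of 6.54 in young normal, 5.25 in old normal, 7.23 in young restricted and 6.95 in old restricted liver. Its age step was -1.25 on the normal diet and its diet step in old mice 1.49 (adjusted p = 5.05e-09), and old restricted and young normal liver did not differ past the threshold (0.23, adjusted p = 0.341). Lpl, lipoprotein lipase, had an age step of 0.64 (adjusted p = 0.0143) and diet steps of -0.68 in both ages, leaving -0.04 (adjusted p = 0.877). Clec7a, the receptor dectin-1, had an age step of 0.82 on the normal diet and a diet step of -1.38 in old mice, and its sum was -0.56. Noct, a rhythmic deadenylase-family gene, kept its age step: 0.71 on the normal diet and 0.83 under restriction, with a diet step of -0.21 in old mice (adjusted p = 0.142), and the sum was 0.51 (SE 0.11, adjusted p = 0.000101). Jchain, which joins antibody subunits, had age steps of 0.91 and 0.89 and diet steps of -0.59 and -0.62, and old restricted liver did not pass against young liver (0.30, adjusted p = 0.291). For Cd163 and Ociad2 the test of departure from a plain sum did not pass (adjusted p = 0.28 and 0.896).

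**Figure D5:**
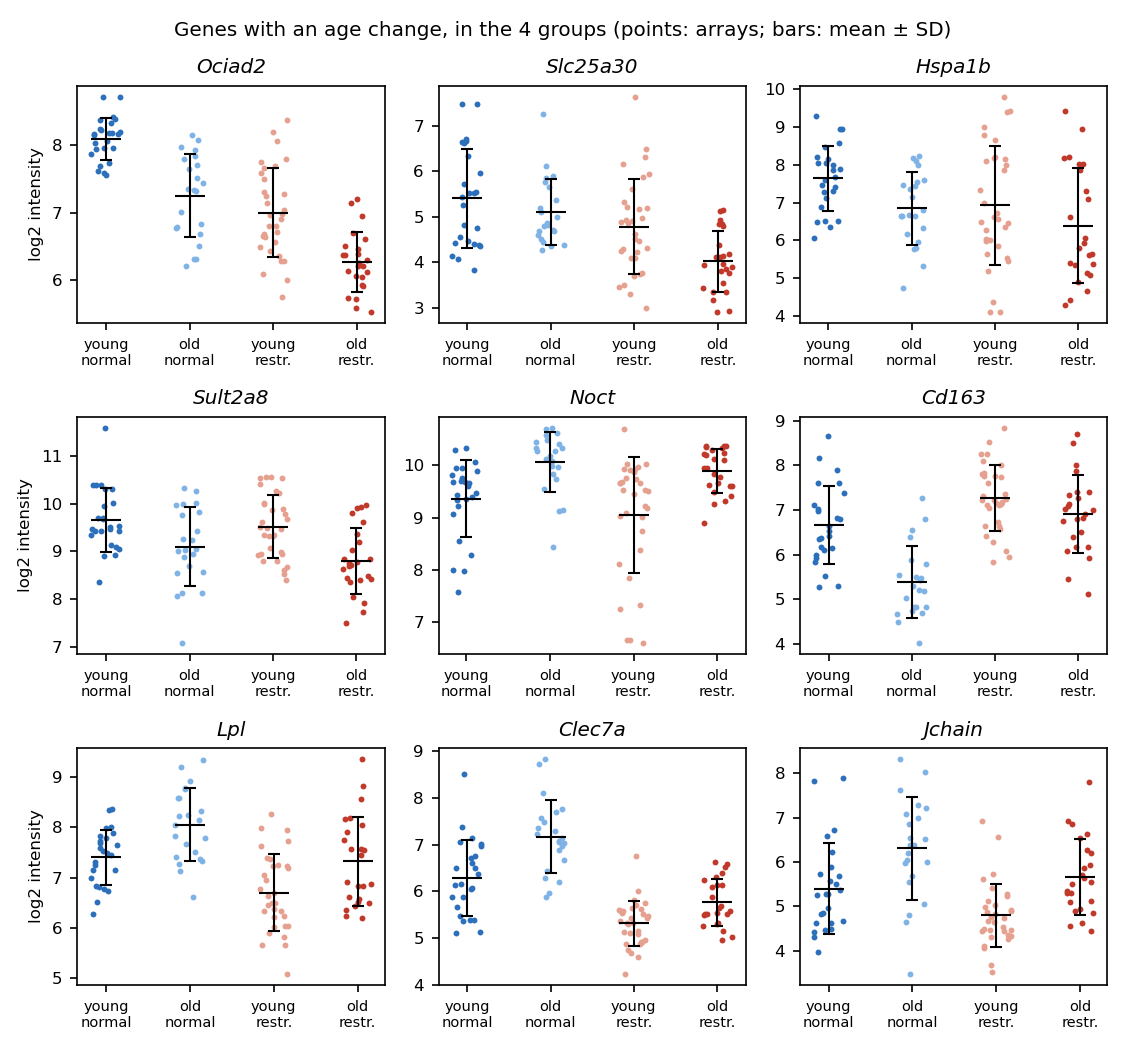
Log2 intensity of every array (vertical axis) in the 4 groups of the study for 9 genes with an age step, with bars for mean and SD. Ociad2 falls from a median of 8.16 in young normal to 6.24 in old restricted liver, while the Cd163 median is lowest in old normal liver (5.25) and 6.95 in old restricted against 6.54 in young normal liver.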

How the data were processed

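Liver RNA (25 ng, amplified with WTA2 for 17 cycles) was hybridised to Affymetrix arrays, and the deposited values are log2 intensities made by RMA, per the submitters' processing notes (version not given in the sources used here). They ran from -1.28 to 14.2 with array medians of 5.06 to 5.22, and array pairs correlated at 0.9392 to 0.9962 with 0 identical. Arrays give no read depth; their number limits the precision.

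The platform annotation pairs 15869 of 21261 probe sets with a single gene symbol; 225 carry more than 1 and 5167 carry none. Of the first kind, 153 did not match a gene ID. For each of 15716 genes the probe set with the highest mean was used, and the 25% of genes with the lowest means (under 4.131) were left out, leaving 11787. limma 3.58.1 (R 4.3.3) fitted the arrays of all 4 groups with 24 means (age, diet and time) and a sex term, with 78 residual degrees of freedom, a median residual SD of 0.155 and eBayes with a trend; the time test was an F test over the within-time differences. Methods were tested on simulated data. Figures used matplotlib 3.10.9.

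Genes named were the 15 with the largest differences in each direction among those called with 1 sign at 6 of 6 times (no predicted models or sex-linked genes), the clock list, the 10 with the widest range over times, leading members and markers of each list, genes with an age change in earlier results, and genes with printed promoters. Further genes were named after their values were seen: members of the lists, the genes without overlap, Lepr, Bcl6 and Gm10037. Members and lists were chosen with earlier results of these data known. Alternatives covered normalization, filters, probe sets, model terms, sexes, times, replicate numbers and single arrays. Genes without a probe set of 1 symbol were not analysed here.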

Additional observations from a re-analysis of the deposited data

Results flagged for a closer look

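For the 30 genes with the largest differences, 12 of 330 group values (3.64%) had a single array far from the other 3 of its group and time; chance gives about 1 in 20. In old restricted liver these were Slc22a26 at 8.15 in ZT20 replicate 3 (nearest 5.33), Orm2 at 8.47 in ZT8 replicate 3 and at 8.87 in ZT20 replicate 4, and Hectd2 at 4.26 in ZT16 replicate 3. In young normal-diet liver they were Pcp4l1 at 6.88 in ZT12 replicate 1, Igfbp2 at 9.51 in ZT16 replicate 2, Cyp2b9 at 7.72 in ZT20 replicate 1, Cyp39a1 at 5.41 and Cyp2c37 at 8.89 in ZT12 replicate 3, Me1 at 8.04 in ZT16 replicate 4 (nearest 10.09), Tcim at 6.43 in ZT0 replicate 4 and Elovl3 at 9.47 in ZT8 replicate 3.

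The difference between the groups varied with time of day for 2938 genes by limma's F test. Among named genes without the sex chromosomes and predicted models, the widest ranges between the highest and lowest within-time log2 difference were 3.98 for Car3, 3.80 for Creld2, 3.46 for Lpin1, 3.33 for Hes7, 3.15 for Ppp1r3g, 3.14 for Manf, 3.08 for Per2, 2.98 for G6pc, 2.96 for Hspa1b and 2.96 for Zbtb16.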

How the results depend on the processing

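The 5326 calls and 2938 time-varying genes moved by more than 1.5 times only with 1 sex or with a replicate number left out. Females alone gave 3471 calls and males alone 3083. Leaving out each replicate number gave 4049 to 5296 calls and 1714 (number 3) to 2896 time-varying genes, with 1888 without number 1 and 1842 without number 2, and each single array 4955 to 5423 and 2568 to 3208. Other settings gave 5439 and 3115 (quantile normalization), 5289 and 2875 (each array centred), 5966 and 3028 (no filter), 4207 and 2555 (the lowest 50% left out), 5372 and 2895 (only the 2 groups), 5331 and 2974 (no sex term), and, chosen after seeing the data, 5127 and 2371 (without 4 young arrays). Leaving out a time gave 4426 (ZT12) to 5242 (ZT16) calls. After group means and sex were removed, 23 same-numbered pairs correlated at -0.39 to 0.07 (median -0.06). The array with its own number was the closest for 0 of the 23, fewer than random picks among 4 to 5 young arrays per time would give. Same-numbered arrays were thus not alike, which cannot show whether a number marks a shared batch in values already processed. With the number as a block, 5280 and 2796 genes passed over the whole day and 5115 and 2373 within each time. No named gene past the threshold reversed its direction; some below it, such as Per2, Nfil3 and Clock, changed sign in some settings, as when 1 time was left out.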

Other observations

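Other gene groups differed less between old restricted and young normal-diet liver. Of 27 proteasome genes 14 were lower and 1 higher, against 24.8% and 20.4% of all genes, but the differences were small: the median was -0.09, and the leading member, the lid subunit gene Psmd14, differed by -0.29. Of 47 genes of mitochondrial respiration 10 were higher and 6 lower (median 0.04), from Uqcrq (-0.17) of complex III to Atp5c1 (0.31) of ATP synthase. Of 22 complement and coagulation genes 6 were higher and 8 lower (median 0.00). Among the terminal complement genes C6 (-0.89), C9 (-0.59) and C8a (-0.43) were lower, and C8b (0.06) did not pass. The coagulation factor genes F7 (0.51) and F10 (0.36) were higher and F9 (-0.29) lower.

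In the autophagy and lysosome list 2 of 15 genes were higher and 6 lower (median -0.04), against 20.4% and 24.8% of all genes. Ulk1, the kinase that starts autophagy, was lower (-0.46, SE 0.06), and the lysosomal protease genes Ctsd (-0.18) and Ctsb (0.25) moved apart. In the interferon list 2 of 15 were higher and 5 lower (median -0.13), beside the same shares over all genes. Among its members Ifit2 (-0.36) and Rsad2 (-0.35) were lower and Irf1 (0.25) higher. Without the 4 young arrays that stood apart in sex-linked transcripts, 3 interferon genes were lower and 1 autophagy gene higher.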
